A study of Drosophila melanogaster with 2 samples.

Results

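The 10 genes described here belong to the heat shock response of Drosophila melanogaster and were taken by name from the Ensembl annotation of the dm6 genome build, out of 18164 annotated genes on the main chromosome arms. They are the Hsp90 gene Hsp83, the small heat shock genes Hsp22, Hsp23, Hsp26 and Hsp27, the Hsp70 family genes Hsp68, Hsc70-4 and Hsc70-5, the heat shock RNA gene lncRNA:Hsromega, and Hsf. The first 8 encode chaperones. lncRNA:Hsromega is transcribed into a non-coding RNA and Hsf encodes the heat shock transcription factor, so neither is a chaperone gene. For each gene, ChIP-seq regions were collected whose summit lay within 500 bp of an annotated transcription start site, which is called its promoter below.

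The protein mapped on chromatin was the product of CG11398, joined at its C terminus to GFP in a transgenic line and pulled down with an antibody to GFP. Chromatin came from whole embryos, male and female together, collected 0 to 24 h into development, so cell types and stages were mixed, and no heat shock is mentioned in the labels. There was 1 group of 2 biological replicates, numbered 1 and 3, both of which carried the transgene, and no list from the control was used here. With 1 group there was no comparison between conditions and no test, and the values below describe where the heat shock genes stood in the authors' region lists.

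Each replicate came with 30000 relaxed regions, a list that includes weak background, and the pooled replicates gave another 30000. The thresholded list held 2712 peaks that passed the authors' irreproducible discovery rate, and these were exactly the 2712 strongest regions of the pooled list. Every region has a summit and a signal value, both the authors' own. The signal has no stated normalization, so ranks are given within each list, from 1 for the strongest region to 30000 for the weakest. Ratios of signals describe the deposited values, whose scale is not known to be proportional to binding. The thresholded signal ran from 79.82 to 1410 with a median of 115.1, and the median of all pooled relaxed regions was 33.6.

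Heat shock genes are the classical example of rapid transcriptional induction. On stress, the heat shock factor forms trimers and binds heat shock elements, which are runs of short inverted repeats upstream of these genes. Before induction many of these promoters hold a paused RNA polymerase II, a TATA box and binding sites of GAGA factor. The small heat shock proteins hold unfolded proteins in a soluble state, Hsp70 proteins refold them in cycles of ATP hydrolysis, and Hsp90 matures signalling proteins. Hsp83, Hsp26 and Hsp27 are also known for transcription in the ovary without stress, and Hsc70 genes are expressed constitutively.

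The promoter sequences that the results turn on are given 5′ to 3′ on the strand of the gene, from the Release 6 (dm6) genome. Capitals mark heat shock elements of at least 2 units of 5 bases, that is GAANNTTC or TTCNNGAA and overlapping runs of them. The first pair carried thresholded peaks and shows a promoter with an element in capitals and one without. Hsp68 is shown because its run holds the most capitals of those printed and had no thresholded peak. The bases of lncRNA:Hsromega lie between its peak summit and its downstream start site. The runs of 200 bases end at the base before the start site. The Hsp26 run is chr3L:9377428-9377627 on the minus strand and its peak summit is base 112, the Hsp27 run is chr3L:9383863-9384062 on the plus strand with the summit at base 92, the Hsp68 run is chr3R:24057311-24057510 on the minus strand with its weak summit at base 189, and the lncRNA:Hsromega run is chr3R:21296421-21296620 on the plus strand.
Hsp26: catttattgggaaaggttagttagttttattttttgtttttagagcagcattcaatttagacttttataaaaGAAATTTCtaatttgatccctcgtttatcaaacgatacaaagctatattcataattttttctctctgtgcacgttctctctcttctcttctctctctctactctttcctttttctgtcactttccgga
Hsp27: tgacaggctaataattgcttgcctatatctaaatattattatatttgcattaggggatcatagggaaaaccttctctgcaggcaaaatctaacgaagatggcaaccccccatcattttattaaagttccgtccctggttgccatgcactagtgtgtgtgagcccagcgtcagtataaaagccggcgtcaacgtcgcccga
Hsp68: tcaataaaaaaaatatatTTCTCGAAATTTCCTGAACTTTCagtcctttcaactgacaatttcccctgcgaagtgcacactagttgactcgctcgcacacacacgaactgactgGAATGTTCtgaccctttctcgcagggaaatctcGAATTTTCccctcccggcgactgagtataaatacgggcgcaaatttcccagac
lncRNA:Hsromega: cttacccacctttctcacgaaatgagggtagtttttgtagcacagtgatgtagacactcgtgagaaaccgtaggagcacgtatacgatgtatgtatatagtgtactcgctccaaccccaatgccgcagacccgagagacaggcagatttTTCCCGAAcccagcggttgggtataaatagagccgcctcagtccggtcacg

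For 3 further genes the 30 bases around an element are given, all on the plus strand. The Hsp83 site, chr3L:3193137-3193166, lies in the annotated 5′ UTR of the longer transcript and inside the strongest promoter peak of the 10 genes. The Hsp23 site, chr3L:9381469-9381498, and the Hsc70-4 site, chr3R:15242943-15242972, hold elements of 3 units.
Hsp83: agaagcctctaGAAGTTTCtagagacttcc
Hsp23: gcagtctcGAAGTTTCGCGAAtttactcca
Hsc70-4: ggcaaggtTTCTCGAACTTTCgaccccagt

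Peaks stood at the promoters of 5 of the 10 genes: Hsp83, Hsp26, Hsp27, lncRNA:Hsromega and Hsc70-5. All 10 genes had at least 1 pooled relaxed region at the promoter and could therefore have carried a peak. Of all 8635 genes with such a region, 1920 had a thresholded promoter peak, which is 22.2%, and this is 10.6% of all annotated genes. The strongest promoter region of the 10 genes had a median signal of 89.27, against 46.82 over the 8635 genes, and the 10 genes had a median percentile of 80.3 among them. The 10 genes ranged between 32.43 at Hsp68 and 348.0 at Hsp83, and all 8635 genes between 22.73 and 1326. The peak within Hsp83 at 85.34 was the heat shock gene peak closest above the threshold, and a region of lncRNA:Hsromega at 76.07 and the Hsp22 region at 72.40 were the closest below it.

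**Figure D1:**
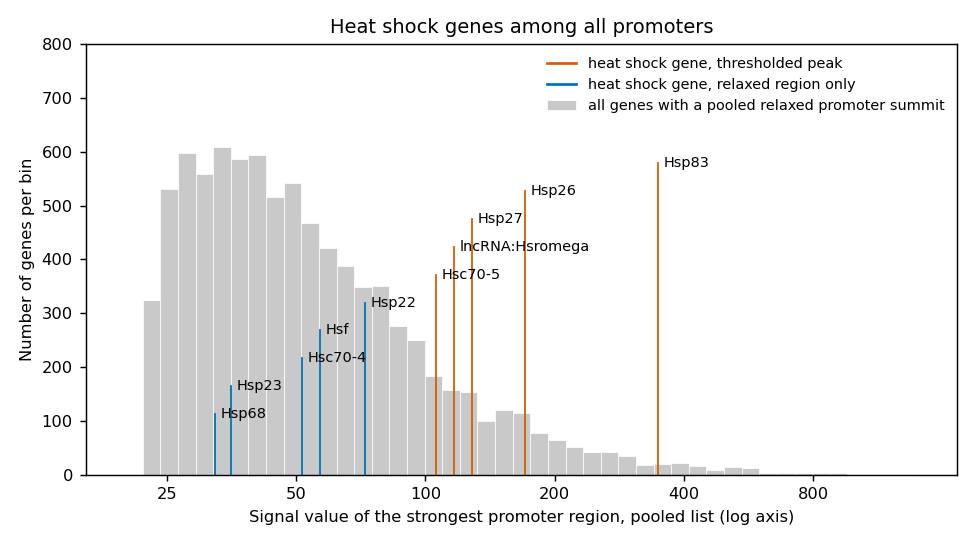
Grey bars count the 8635 genes with a pooled relaxed promoter region by the signal value of the strongest one (log axis). Coloured lines mark the 10 heat shock genes, with heights set only to separate the names: the 5 with thresholded peaks lie between 106.1 and 348.0, and the other genes between 32.43 and 72.40, inside the bulk of the distribution.

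Hsp83 (FBgn0001233, chr3L:3192969-3197059, plus strand) encodes the cytosolic Hsp90 chaperone and had the strongest promoter peak of the 10 genes. Its peak had a signal of 206.1 in replicate 1, where it ranked 95, and of 140.6 in replicate 3, where it ranked 177. The pooled signal was 348.0 at rank 122, in the 98.7th percentile of genes. It stood first among the 10 genes in each of the 3 lists. The summit lay 95 bp before the start site at 3193216, in the annotated 5′ UTR of the transcript that starts at 3192969, and the replicate summits were 15 bp apart. The peak was 258 bp wide in the pooled list, where the usual width was 416 bp. Of the thresholded peaks 11.7% were narrower than that usual width, and they made up 318 of the 320 narrower regions of the pooled list.

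A second thresholded peak of Hsp83 had its summit 1082 bp after the same start site, inside an intron. Its signal was 56.88 in replicate 1 and 39.65 in replicate 3. It was weaker than the promoter peak in both replicates and in the pooled list, with 85.34. Among the other 1467 thresholded promoter peaks, the pair of replicate signals closest to that of the Hsp83 promoter belonged to Tina-1, nrv1 and CG1142, as measured by the Euclidean distance of the log2 signals over the 2 replicates. Tina-1, at a distance of 0.08, had signals of 214.7 in replicate 1 and 135.8 in replicate 3. The distances of nrv1 and CG1142 were both 0.12.

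**Figure D2:**
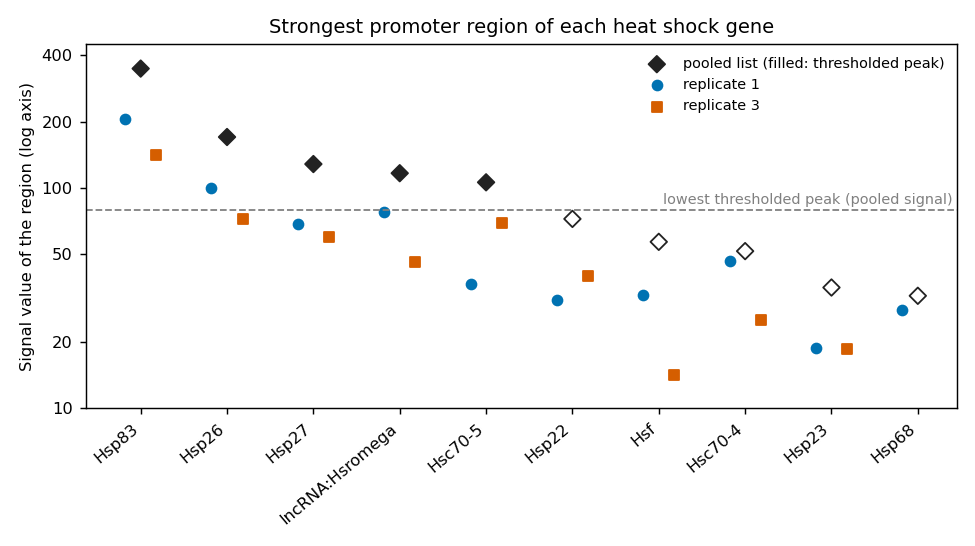
Signal value (log axis) of the strongest pooled promoter region of each gene, with the overlapping region of each replicate; filled diamonds are thresholded peaks and the dashed line is the lowest thresholded signal, 79.82, which applies to the pooled diamonds only. Hsp83 and Hsp26 stand highest in all 3 lists, while the signals of Hsc70-5, Hsf and Hsc70-4 differ most between the replicates, and Hsp68 has no point for replicate 3.

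The 4 small heat shock genes lie together at cytological position 67B and did not share a pattern. Hsp26 and Hsp27 had thresholded peaks, and Hsp22 and Hsp23 did not. Hsp26 (FBgn0001225, chr3L:9376418-9377427, minus strand) had signals of 100.1 in replicate 1 and 72.62 in replicate 3, with ranks of 497 and 801. Hsp27 (FBgn0001226, chr3L:9384063-9385694, plus strand) had 68.54 in replicate 1 and 60.21 in replicate 3, with ranks of 1131 and 1136. Hsp26 was therefore the higher of this pair in both replicates, by 1.46-fold and 1.21-fold, and both were well above the replicate list medians of 20.3 and 17.0.

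Both peaks lay upstream of the start sites. Hsp26 has 2 annotated start sites, at 9377427 and 9377375, and its pooled summit lay 89 bp before the first and 141 bp before the second, with the replicate summits 1 bp apart. The Hsp27 summit lay 109 bp before the start site and the replicate summits were 31 bp apart, near the median gap of 27 bp over thresholded peaks. Both summits fell between genes. Measured from the nearest start site, they and that of Hsp83 lay 89 to 109 bp upstream, whereas from its other start site at 3192969 the Hsp83 summit was 152 bp downstream. Over all 1468 thresholded promoter peaks the median summit lay 61 bp upstream and 69.7% of summits were upstream. The sequence within 100 bp of the Hsp26 summit had a GC content of 31.3%, below the mean of 39.3% over thresholded peaks (SD 7.00), whereas Hsp27 with 41.8% and Hsp83 with 47.8% lay above it.

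Hsp22 (FBgn0001223, chr3L:9372931-9374964, plus strand), whose protein acts in mitochondria, stood just below the threshold with a pooled signal of 72.40. It had 31.00 in replicate 1, at rank 6086, and 39.98 in replicate 3, at rank 2523. It ranked higher in replicate 3, and its summit was far from the start site in both, 469 bp upstream in the pooled list, where the annotation has the 3′ UTR of CG4456 and the 5′ UTR of a longer Hsp22 transcript. Hsp23 (FBgn0001224, chr3L:9381882-9382765, plus strand) had 18.85 in replicate 1 and 18.55 in replicate 3, at ranks 17206 and 12393. Both values were close to the median of their lists. This region was centred in the coding exon, 431 bp after the start site, and a weaker one of 29.01 lay 240 bp before it. Hsp26 exceeded Hsp23 by 5.31-fold in replicate 1 and 3.91-fold in replicate 3, and exceeded Hsp22 by 3.23-fold and 1.82-fold.

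The window of 18.2 kb around the small heat shock genes, chr3L:9369511-9387694, held 2 thresholded peaks and 11 pooled relaxed regions. This is 6.05 pooled regions per 10 kb, against 2.24 over the main arms, and 1.10 thresholded peaks per 10 kb, against 0.203. The window was drawn around the small heat shock genes, and its density of genes was not matched to that of the main arms. These values therefore do not show whether it held more regions or peaks per gene. The other small heat shock genes of the window, Hsp67Ba, Hsp67Bc and CG4461, carried no peak. Hsp67Bc and CG4456 shared a region with a signal of 30.09, whose summit also lay 224 bp before the Hsp22 start site at 9372931. No pooled region had its summit at the promoters of Hsp67Ba and CG4461. Of the remaining genes, CG4452 had 53.62 and CG4080 a weaker region, while Fdx1, asRNA:CR43481 and the pseudogenes CR43482 and CR43483 had no promoter region. The 2 peaks at Hsp26 and Hsp27 were the strongest regions of the window in each replicate.

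**Figure D3:**
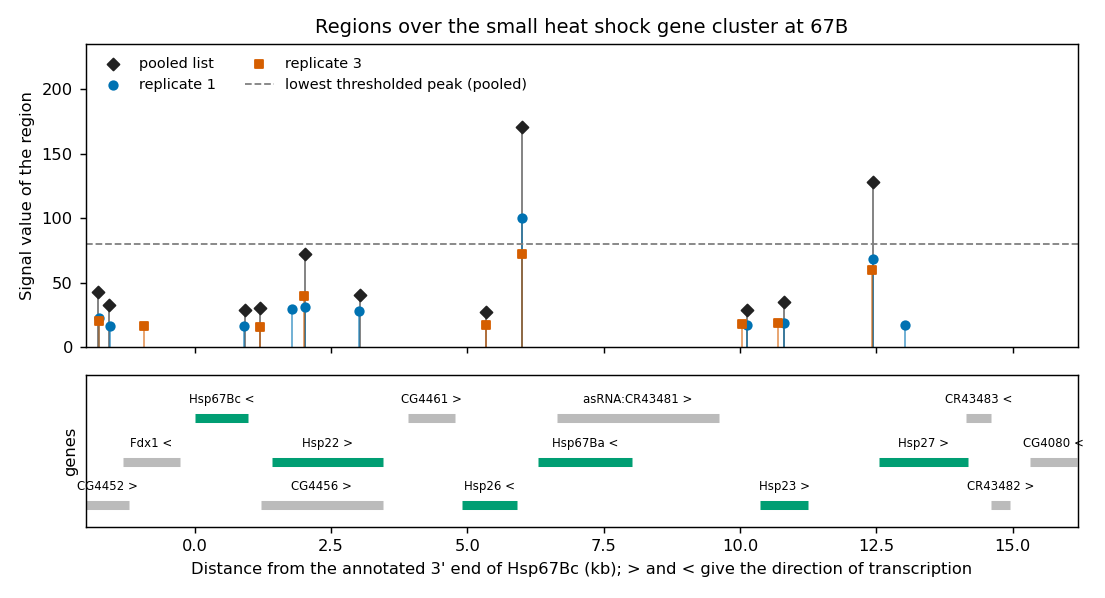
Signal values of all regions in the 67B window (upper panel) above the annotated genes, with genes named Hsp in green (lower panel), by distance in kb from the annotated 3′ end of Hsp67Bc. The pooled regions before Hsp26 and Hsp27, at 170.3 and 128.4, are the only ones above the dashed line at 79.82, and Hsp22 comes next with 72.40.

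lncRNA:Hsromega (FBgn0001234, chr3R:21296127-21317836, plus strand) makes nuclear RNAs that organise omega speckles, bodies that hold RNA-processing proteins. Its promoter peak had 77.95 in replicate 1, at rank 855, and 45.97 in replicate 3, at rank 1905, and a pooled signal of 116.7. In order of signal it came after Hsp83 and Hsp26 in replicate 1, and after Hsc70-5 and Hsp27 as well in replicate 3. The pooled summit lay in an exon between its start sites, 210 bp before the one at 21296621 and 284 bp after the one at 21296127. The replicate summits were 76 bp apart, against a median gap of 27 bp over thresholded peaks. That of replicate 3 was nearest to the start site at 21296127, 205 bp after it. The strongest peak of this gene was not at the promoter: it lay in an exon 1059 bp after the same start site, with 139.5 in replicate 1 and 64.13 in replicate 3, and its pooled signal of 206.7 ranked 411. The summit of this inner peak was at the same base in both replicates.

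The Hsp70 family members differed from one another and between replicates. Hsc70-5 (FBgn0001220, chr2R:14252598-14256192, minus strand) encodes the mitochondrial Hsp70 and carried a thresholded peak in its 5′ UTR. The summit lay 49 bp after the start site at 14256192 and 82 bp before the one at 14256061. Hsc70-5 had 36.62 in replicate 1, at rank 4313, but 69.21 in replicate 3, at rank 869. Replicate 3 was thus the higher, with a log2 ratio of replicate 3 over replicate 1 of 0.92, where the median over the 2712 thresholded peaks was -0.18 (SD 0.56). Only 2.40% of thresholded peaks had a ratio at or above that. The summit was also 350 bp upstream of CG8531, which was the only gene to share a thresholded promoter peak with any of the 10.

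Hsc70-4 (FBgn0266599, chr3R:15242687-15246614, plus strand) encodes the main constitutive cytosolic Hsp70 and had no thresholded peak. Its strongest promoter region, 123 bp before the first start site and shared with tefu, had 46.59 in replicate 1, at rank 2586, and 25.23 in replicate 3, at rank 6262. Replicate 1 was the higher here, so the order of the Hsc70 genes differed between the replicates. Hsc70-5 over Hsc70-4 was 0.786 in replicate 1 and 2.74 in replicate 3. Hsp68 (FBgn0001230, chr3R:24055080-24057310, minus strand), a stress-induced Hsp70 family gene, was the lowest of the 10 in the pooled list, with 32.43 at rank 16057. It had 27.94 in replicate 1, at rank 7631 and above Hsp23, and no overlapping region in replicate 3. A stronger relaxed region of 61.78 lay 931 bp before its start site, outside the promoter, with 48.98 in replicate 1 and 15.43 in a region of replicate 3 centred 828 bp before that site.

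The 6 Hsp70 genes proper, Hsp70Aa, Hsp70Ab, Hsp70Ba, Hsp70Bb, Hsp70Bbb and Hsp70Bc, had no thresholded peak and no pooled relaxed region within 1000 bp. Replicate 3 had 1 region at Hsp70Aa and replicate 1 had 1 at Hsp70Ab. These genes are near-identical copies, and how reads that match several copies were treated is not given in the sources used here, so a missing region there cannot be read as a missing signal.

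Hsf (FBgn0001222, chr2R:18130303-18134634, minus strand), whose product switches on heat shock genes in stressed cells, had a pooled region of 56.98 in an intron, 451 bp after the start site. Its signal was 32.80 in replicate 1, at rank 5422, and 14.11 in replicate 3, at rank 22043. It was the seventh of the 10 genes in replicate 1 and the lowest of the 9 with a region in replicate 3. The replicate summits lay 527 and 566 bp after the start site, just beyond the 500 bp promoter.

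**Figure D4:**
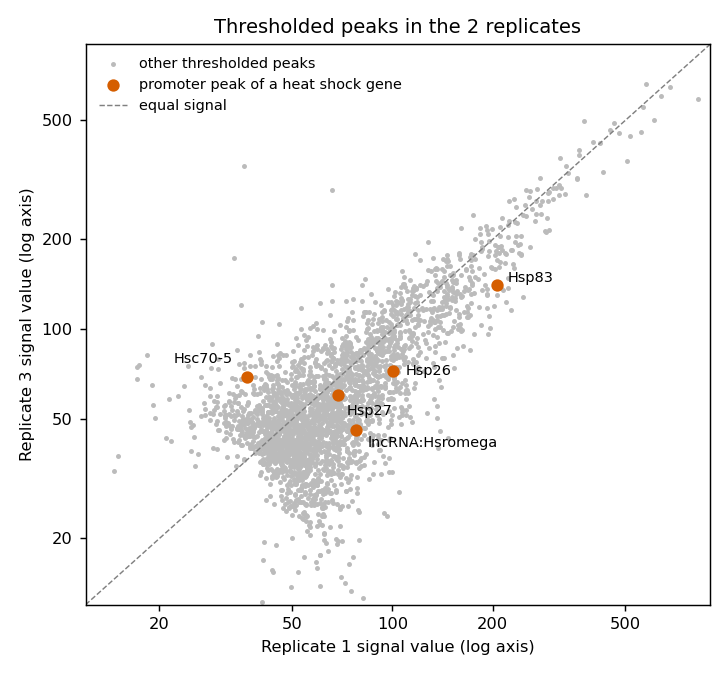
Signal values of the 2712 thresholded peaks in replicate 1 (horizontal) and replicate 3 (vertical), both on log axes, with the promoter peaks of 5 heat shock genes in orange and a dashed line of equal signal. Hsp83, Hsp26, Hsp27 and lncRNA:Hsromega lie below the line, while Hsc70-5, with 36.62 and 69.21, lies above it at the edge of the cloud.

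Set side by side, Hsp83 exceeded every other gene of the 10 in both replicates. Its signal over that of Hsp26 was 2.06 in replicate 1 and 1.94 in replicate 3, and over that of lncRNA:Hsromega 2.64 and 3.06. The ratio to Hsc70-5 was less stable, at 5.63 in replicate 1 and 2.03 in replicate 3. The small heat shock genes ranged between 35.36 and 170.3 with a median of 100.4, and the Hsp70 family genes between 32.43 and 106.1 with a median of 51.71. After Hsp83 and Hsp26, which came first and second in each list, the order was lncRNA:Hsromega, Hsp27, Hsc70-4 and Hsc70-5 in replicate 1 and Hsc70-5, Hsp27, lncRNA:Hsromega and Hsp22 in replicate 3. Of the genes after Hsp26, only Hsp27 held the same place in both replicates. Hsp27 was above Hsc70-4 in both, whereas lncRNA:Hsromega was above Hsp27 in replicate 1 and below Hsp27 in replicate 3.

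The heat shock element was searched for as alternating 5-base units, NGAAN and NTTCN, on both strands from 250 bp before to 50 bp after each start site. An element of 3 units stood at 2 of the 10 genes, Hsp68 and Hsc70-4, against 0.518% of the other 18154 genes. Neither of them had a thresholded promoter peak, and Hsc70-4, with 6 annotated start sites, was searched over a longer span than the others. The Hsc70-4 element began 205 bp before the start site at 15243156 and 247 bp before that at 15243198. Its strongest region was instead placed from the first start site. An element of 2 units, GAANNTTC or TTCNNGAA, stood at 7 genes, against 18.9% of the other genes. They were Hsp68, Hsc70-4, Hsp83, Hsp22, Hsp23, Hsp26 and lncRNA:Hsromega. Further upstream, within 500 bp, Hsp27, Hsc70-5 and Hsf held one as well, beginning 338, 313 and 390 bp before a start site. No share of other genes is given for the 2-unit element over that wider span. Every 3-unit element holds 2-unit ones, so the counts overlap. Among genes with a thresholded promoter peak 22.2% had a 2-unit element and 0.833% a 3-unit one.

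Elements and summits can be placed against each other in the sequences given above. At Hsp83 the element spanned 68 to 61 bp before the start site, and the summit lay 95 bp before it. At Hsp26 the element in capitals began 128 bp before the start site at 9377427, where the summit was 89 bp upstream, and further elements began 216, 291 and 317 bp before that site and 3 bp after it. The last of these lay 49 to 42 bp before the start site at 9377375, and the TATA word of Hsp26 began 28 bp before the same site. Hsp68 had a run of units between 182 and 160 bp upstream and further elements starting 86 and 53 bp upstream, and its summit had the lowest pooled signal of the 10 genes, 32.43, although not the lowest in replicate 1. In the Hsp27 sequence no element was found, and the nearest one began 338 bp upstream of the start site. The Hsp23 element of 3 units began 405 bp upstream. Over all peaks, a 3-unit element lay within 100 bp of 7 of 2712 thresholded summits, which is 0.258%, against 0.220% of the 27288 other pooled summits. For the 2-unit element the shares were 10.2% and 9.19%.

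Other promoter words were searched in the same span on both strands. TATAAA stood at 9 of the 10 genes, against 48.3% of other genes, and GAGAG at 6, against 34.7%. Among other genes with a relaxed promoter region, these shares were 47.9% for TATAAA and 40.3% for GAGAG. Among genes with a thresholded promoter peak they were 52.3% and 46.4%. On the strand of the gene and with its first base 35 to 20 bp before a start site, TATAAA stood at 8 of the 10 genes, all but Hsc70-5 and Hsf, against 7.05% of other genes. Among other genes with a thresholded promoter peak this share was 3.92%, and among other genes with a relaxed promoter region 4.90%. This span was chosen after the positions had been seen. Of the 5 genes with a peak, Hsc70-5 was the one without such a TATA box. The DRE word TATCGATA was found at Hsp83, against 8.16% of other genes, and the Forkhead core TGTTTAC at Hsc70-5, against 10.5%. Among genes with a thresholded promoter peak, which both genes had, these shares were 15.1% and 15.8%. A match is only a run of letters in this span, and its use by a factor was not measured here.

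**Figure D5:**
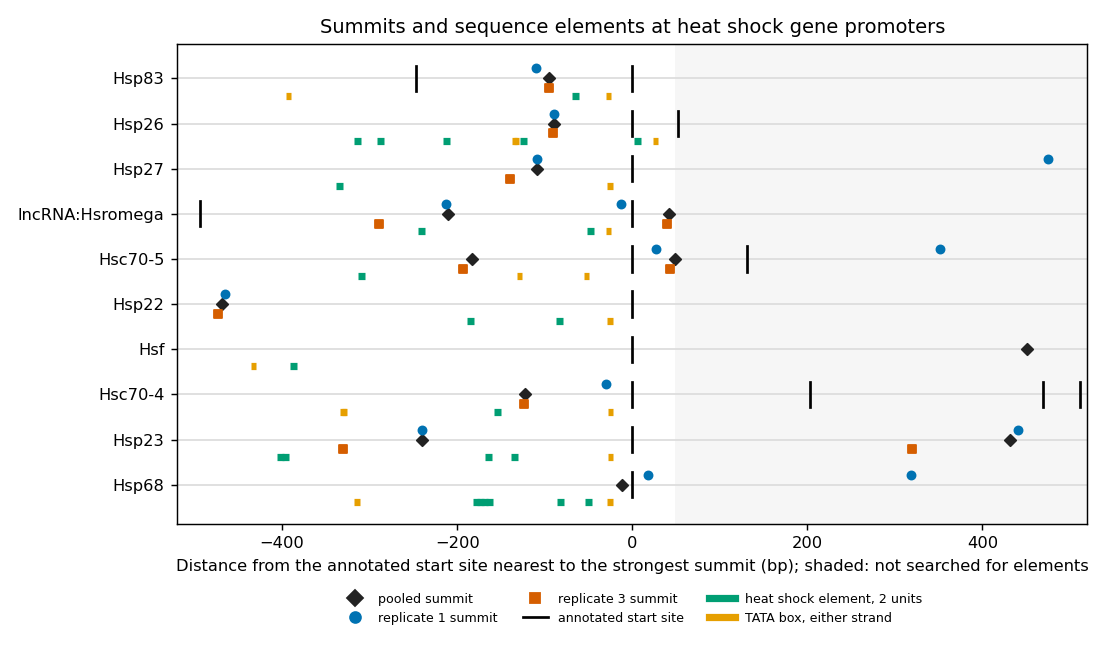
Summits of pooled, replicate 1 and replicate 3 regions (symbols), 2-unit heat shock elements (green) and TATA words (yellow) by distance in bp from the annotated start site nearest to the strongest summit, with annotated start sites as black bars and the span not searched for elements shaded. Elements are drawn up to 500 bp upstream, beyond the 250 bp used for the counts in the text. Summits of Hsp83, Hsp26 and Hsp27 lie 89 to 109 bp upstream in the pooled list, and those of Hsp22 and Hsf lie 469 bp upstream and 451 bp downstream.

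Beyond the 10 genes, other chaperone genes and factors of heat shock promoters were taken as 7 lists with 72 genes outside the 10. Of these, 50 had a relaxed promoter region and 13 a thresholded peak, which is 26.0%, against 22.2% of all genes with such a region. Their median signal was 43.3, against 46.8 over all genes with a region, so as a whole they stood near the background. The other small heat shock genes had 0 peaks among 2 with a region, and the other Hsp90 genes 0 of 2: Gp93, of the endoplasmic reticulum, had 38.21 and Trap1, of mitochondria, had 34.47. The Trap1 summit lay 417 bp before its start site but 167 bp after that of Bap170. The other Hsp70 and Hsp110 genes had 1 peak among 3, at Hsp110, which encodes a nucleotide exchange factor of Hsp70. Hsp110 had 65.92 in replicate 1 and 26.94 in replicate 3.

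The Hsp60, Hsp10, TRiC and prefoldin genes, whose products form chambers or feed them with unfolded proteins, had 2 peaks among 14 genes with a region. The peaks were at CG11267, with a signal of 111.1, and at Pfdn6, with 95.11, which shared its peak with Su(z)12. Among 10 Hsp40 genes, whose products deliver clients to Hsp70, mrj had 239.1 and P58IPK had 102.1. The mrj peak was above that of Hsp26 in both replicates, with 146.0 in replicate 1 and 97.33 in replicate 3. Among 9 Hsp90 and Hsp70 cochaperone genes with a region, only stv, which encodes a BAG protein, had a peak, at 99.49 and 420 bp upstream. This is 11.1%, below the share of all genes, and the median signal of the 9 was 34.7.

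Genes for factors that act at heat shock promoters had 7 peaks among 10 genes with a region, not counting Hsf, which is 70.0%, against 22.2% of all genes with a region, and a median signal of 92.9, against 46.8. The strongest was at Nelf-E, a subunit of the complex that holds paused polymerase, with 442.8, but that summit lay 5 bp before the start site of the ribosomal protein gene RpL14. Trl, which encodes GAGA factor, had 139.4 in replicate 1, 101.5 in replicate 3 and 235.9 pooled, 143 bp after its start site. Nelf-A had 123.8 with a summit 39 bp before CG3337 and 81 bp before Nelf-A, and fs(1)h had 99.20 with a summit 14 bp before mys. Spt6 had 95.34 with a summit 228 bp before its start site and 341 bp before schlank. CycT, the cyclin of the kinase that releases paused polymerase, had 90.41. The subunit genes NELF-B and TH1, with 33.42 and 70.38, and Cdk9, with 59.16, had no peak. The list is short and was written with earlier results of these data known.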

How the data were processed

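ChIP-seq of CG11398 fused to GFP was available for 2 biological replicates of whole embryos, per the labels. The authors deposited relaxed and thresholded region lists in the dm6 and dm3 builds; the dm6 lists were used. Alignments of a replicate and a control gave that replicate's list, and both replicates together gave the pooled and the thresholded list, per the deposited notes. The deposited signal value has no stated normalization and served for ranks, medians and ratios within a list, and for ratios between replicates, as deposited. The deposited -log10 q-value was not used to rank regions. The aligner and the caller were not given in the sources used here. Sequencing depth is unknown, since there are no read counts in the lists, and regions are not replicates.

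The 10 genes and the 7 gene lists were chosen with earlier results of these data known, so their counts were set beside those of all genes and not tested. Of the list symbols, 9 were replaced by the name the annotation uses. A region belonged to a gene when its summit lay within 500 bp of any annotated start site (Ensembl annotation, main arms, without transposons), and a gene's percentile is that of its strongest pooled promoter region among 8635 genes. Replicate values come from the region that overlapped the pooled one by at least 1 bp and had the nearest summit. The plan described the 67B window with a mistaken gene order, so the window spans the 6 genes named Hsp there, and CG4461 among them, with 2000 bp on either side. The text names the 10 genes, genes sharing their thresholded promoter peaks, the 3 promoter peaks most like that of Hsp83, the genes of the window and up to 6 genes with a peak per list. The genes without a peak that are named in the lists, genes sharing a promoter region with list genes, and tefu and the Hsp70 genes, were added after their values were seen. Python 3.11.15 with numpy 2.4.6, pandas 2.3.3 and matplotlib 3.10.9 was used. Gene assignment was tested on planted summits and gave the same genes as bedtools 2.31.1. Alternatives were promoter windows of 200 and 1000 bp, any overlap of peak and promoter, the stronger 50% of peaks, RefSeq start sites, all annotated genes as background, each replicate left out, and shorter or looser heat shock elements. Leaving out a replicate meant taking the 2712 strongest regions of the other.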

Additional observations from a re-analysis of the deposited data

How the results depend on the processing

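The count of 5 heat shock genes with a thresholded promoter peak was 4 with a window of 200 bp, where lncRNA:Hsromega dropped out, and 4 with the stronger 50% of peaks, where Hsc70-5 did. It was 5 with a window of 1000 bp, with any overlap of peak and promoter and with RefSeq start sites. Leaving out 1 replicate gave 5 to 6: without replicate 1 Hsp22 was added, and without replicate 3 Hsc70-4 was added and Hsc70-5 was lost. Hsp83, Hsp26 and Hsp27 had a peak in each of these 7 settings. The background share of 22.2% was 21.1% to 22.8% with 1 replicate left out and 10.6% over all annotated genes. With a window of 200 bp, 7 of the 10 genes had a pooled relaxed promoter region. The 2 genes with a 3-unit element were 7 with 2 units, 3 with 500 bp upstream, and 7 when at most 1 of 9 fixed letters could differ, an alternative chosen after seeing the data. The rank percentile among regions was 82.9 for Hsf in the pooled list and 26.5 without replicate 1, and 46.5 for Hsp68 in the pooled list and 74.6 without replicate 3. With 2 replicates of unknown depth, differences between genes of similar rank could not be resolved. Whether the signal at these promoters exceeded that of the control was not tested here. The authors' own replicate lists had been made with a control.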
